A study of Mus musculus with 9 samples.

Results

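The integrin, laminin and nidogen genes encode the proteins by which cells lay down a basement membrane and hold on to it. Members were the probe sets annotated to a single gene whose symbol begins as an integrin alpha, integrin beta, laminin alpha, laminin beta or laminin gamma chain, or is Nid1 or Nid2, without the integrin-binding protein genes. The rule found 34 of the 12393 genes named on the array, comprising 22 integrin genes, 10 laminin genes and 2 nidogen genes, on 60 probe sets. Each gene is given by its brightest probe set on average over the arrays, and the gene for the laminin gamma2 chain was not analysed here.

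The arrays held RNA from 3 populations sorted from collagenase- and trypsin-treated back skin of virgin female CD1 mice, all carrying the Lef1RFP and K14H2BGFP reporters. Dermal papilla cells, the mesenchymal cluster at the follicle base, were RFP+ and GFP- and depleted of cells with CD45, CD117, integrin alpha 7 and, per the sample titles, CD34. Hair germ cells, the small epithelial cluster beside the papilla, were GFP+, CD34- and P-cadherin high, and bulge cells, the epithelial stem cell compartment, were GFP+, CD34+ and P-cadherin low. Each population was taken on postnatal days 43, 56 and 69, early, middle and late in the resting phase (telogen) of the hair cycle, with 1 array for each population and day. The labels name no further treatment, and the sources used here do not say how many mice went into an array or whether arrays of a day shared mice. The sort is defined by reporter activity and surface proteins, so each group is a gated population and not a pure cell type.

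Laminins are trimers of an alpha, a beta and a gamma chain, and nidogens tie the laminin sheet to the collagen IV sheet of the basement membrane. Integrins are pairs of an alpha and a beta subunit that bind these and other matrix proteins from the cell side. In skin, the keratinocyte receptor of integrin alpha6 and beta4 grips the laminin built from the alpha3 and beta3 chains at hemidesmosomes, while the chains of the mesenchymal side are laid down by cells of the dermis.

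All values below are log2(signal + 16) of the deposited MAS5 signals, where 4 is a signal of 0, and each array's own median lay between 5.81 and 6.18 on this scale. Keratinocyte markers had summed signals of 248 to 1134 in dermal papilla, against 40513 to 62632 in hair germ and 34149 to 36581 in bulge. Dermal papilla markers had summed signals of 12600 to 17929 in dermal papilla, against 185 to 551 in hair germ and 167 to 218 in bulge. Both followed the labels. The lists include Krt14 and Lef1, the genes that the reporters of the sort are named for, so this is partly set by the gate. The GAPDH 3'/5' signal ratio, which grows as RNA is degraded or shortened in amplification, was 6.62 in the day 43 dermal papilla array, and 8.34 and 7.90 in the day 43 and day 69 hair germ arrays. It lay between 2.97 and 5.09 in the other 6 arrays.

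The first comparison set dermal papilla against both epithelial populations. The basement membrane genes divided into a mesenchymal set and an epithelial set. Lama2, Lama4, Lamb1, Lamb2, Lamc3, Nid1, Nid2 and the integrin gene Itga9 were higher in dermal papilla, each with all 3 dermal papilla arrays above all 6 epithelial arrays. Lama3, Lama5 and Lamb3 and the receptor genes Itga3, Itga6 and Itgb4 were lower, each with all 3 dermal papilla arrays below all 6 epithelial arrays. The differences ran from 6.19 ± 0.28 (SE) for Lama2 to -6.15 ± 0.25 for Lamb3 on the log2 scale.

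The laminin alpha chains, which set where a laminin binds, showed the division most plainly. Lama2 encodes the alpha2 chain of muscle and nerve basement membranes, whose loss causes a congenital muscular dystrophy. It was at 10.87, 10.88 and 11.10 in dermal papilla on days 43, 56 and 69, against 5.05, 5.22 and 4.18 in hair germ and 4.93, 4.26 and 4.94 in bulge. All epithelial arrays were below their own array's median, and the dermal papilla arrays lay close together. The difference from the mean of hair germ and bulge was 6.19 ± 0.28 (SE; limma, adjusted p = 3.39e-08). Lama4, the alpha4 chain of vessel and mesenchymal basement membranes, was at 7.83, 7.62 and 7.44 in dermal papilla, against 5.57, 4.67 and 4.61 in hair germ and 4.62, 5.05 and 4.44 in bulge. Its difference was 2.80 ± 0.26 (SE; limma, adjusted p = 7.6e-06), and its second probe set differed in the same direction, by 1.87. Endothelial markers, of cells that also make this chain, were above the array median throughout in 0 of 9 genes in dermal papilla, with summed signals of 136 to 276 there, 70.4 to 263 in hair germ and 65.9 to 98.4 in bulge. Pecam1, Cdh5, Kdr, Tek, Emcn and Tie1 were below the median in every dermal papilla array. Smooth muscle and pericyte markers were above it throughout in 3 of 9 genes in dermal papilla and below it throughout in 5. Their summed signals were 855 to 1130 there, 482 to 928 in hair germ and 577 to 720 in bulge. Those of dermal fibroblast markers were 15182 to 20161, 240 to 983 and 245 to 1331. The part of such cells in the Lama4 values was not tested.

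Epithelial alpha chains ran the other way. Lama3 encodes the alpha3 chain of the hemidesmosomal laminin. It was at 5.46, 5.38 and 5.39 in dermal papilla, against 9.52, 9.36 and 9.0 in hair germ and 8.84, 9.04 and 9.43 in bulge. The dermal papilla values lay below the array median, with an SD of 0.04 (n = 3). The difference was -3.79 ± 0.21 (SE; limma, adjusted p = 1.31e-07). Lama5, the alpha5 chain, needed for hair follicle formation in mice, was at 5.16, 4.79 and 5.52 in dermal papilla, against 6.86, 7.64 and 7.21 in hair germ and 7.05, 6.83 and 6.94 in bulge. Hair germ and bulge overlapped, and dermal papilla lay below both, with a difference of -1.93 ± 0.25 (SE; limma, adjusted p = 9.66e-05), or -2.33 on the second probe set.

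Among the beta chains, Lamb1 and Lamb2 were higher in dermal papilla and Lamb3 lower. Lamb3, the beta3 partner of the alpha3 chain, was at 4.77, 4.06 and 4.56 in dermal papilla, against 10.26, 10.49 and 9.79 in hair germ and 10.69, 11.14 and 11.35 in bulge. The mean linear signal in dermal papilla was 0.56% of that in hair germ, below the share of the summed keratinocyte markers, which was 1.09%. The part of keratinocyte RNA in the Lamb3 values was not tested. Lamb1, the beta1 chain found in most laminins, was at 11.65, 11.08 and 11.29 in dermal papilla, against 8.09, 9.55 and 8.36 in hair germ and 6.19, 6.10 and 6.52 in bulge. The populations formed 3 separate steps, and the difference of dermal papilla from the epithelial mean was 3.87 ± 0.30 (SE; limma, adjusted p = 1.68e-06). Lamb2, the beta2 chain of synapses, kidney filter and vessels, was at 8.32, 8.94 and 8.57 in dermal papilla, against 6.84, 7.45 and 7.80 in hair germ and 6.32, 6.80 and 6.76 in bulge. It stepped in the same order over a narrower range, with a difference of 1.61 ± 0.19 (SE; limma, adjusted p = 5.49e-05).

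The gamma chains differed from each other. Lamc3, a gamma chain of limited distribution, was at 8.39, 9.42 and 9.68 in dermal papilla, against 5.21, 5.62 and 5.45 in hair germ and 4.48, 4.13 and 4.23 in bulge. On this probe set no dermal papilla array came within 2 log2 units of an epithelial one, and the difference was 4.31 ± 0.27 (SE; limma, adjusted p = 4.35e-07). The second Lamc3 probe set differed by 2.86, at 7.12, 8.47 and 8.91 in dermal papilla. There hair germ was at 5.44, 5.03 and 6.44 and bulge at 5.29, 4.43 and 5.22. Lamc1, the gamma1 chain that most laminins share, was at 5.74, 6.28 and 6.76 in dermal papilla, against 5.93, 5.76 and 6.31 in hair germ and 5.80, 5.59 and 5.74 in bulge. The populations overlapped around the array median and no difference was called, at 0.40 ± 0.24 (SE; limma, adjusted p = 0.221). Its 2 probe sets disagreed on hair germ against bulge, with 0.29 on the brighter and -0.90 on the other, so no order of those populations is given.

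Both nidogens were higher in dermal papilla. Nid1 was at 9.18, 9.02 and 11.03 in dermal papilla, against 4.14, 5.29 and 5.63 in hair germ and 4.13, 4.12 and 4.93 in bulge. The epithelial arrays all lay below their median, and the difference was 5.04 ± 0.29 (SE; limma, adjusted p = 2.28e-07), or 3.64 on the second probe set. Nid2 was at 6.68, 6.37 and 7.30 in dermal papilla, against 4.61, 4.51 and 5.03 in hair germ and 4.25, 4.28 and 4.33 in bulge. Its dermal papilla arrays were apart from the rest by a smaller margin, with a difference of 2.28 ± 0.25 (SE; limma, adjusted p = 2.9e-05). In bulk RNA from sorted cells, more cells that make a transcript and more transcript per cell cannot be told apart, here and throughout.

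**Figure D1:**
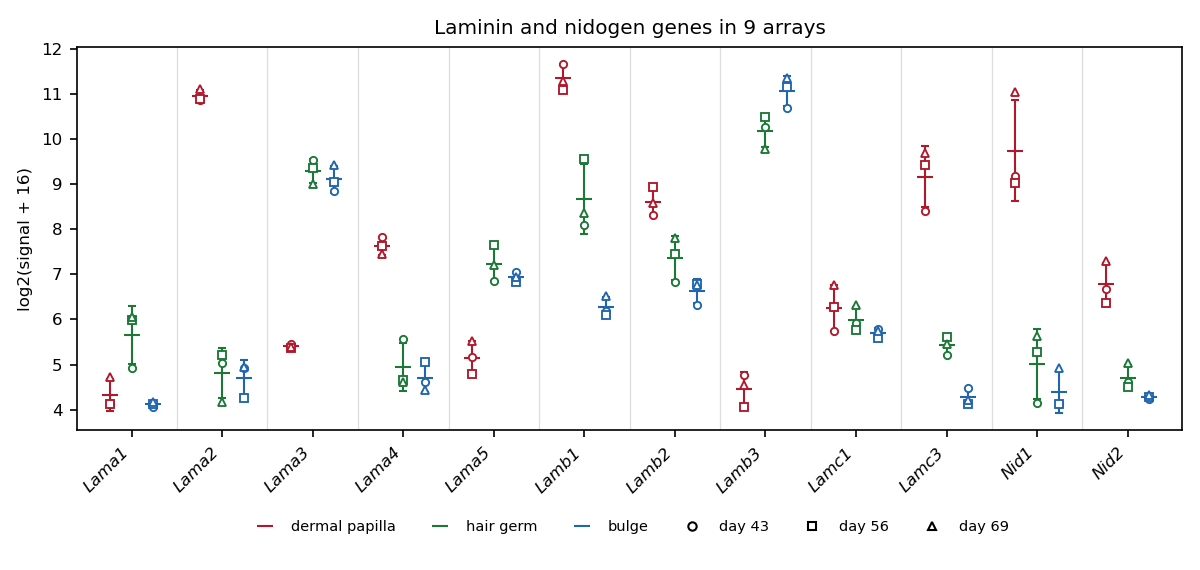
Level of each laminin and nidogen gene, as log2(signal + 16), in dermal papilla (red), hair germ (green) and bulge (blue). Open symbols are single arrays by postnatal day, horizontal ticks are means and bars are the SD over the 3 days. Lama2 sits between 10.87 and 11.10 in dermal papilla and no higher than 5.22 in epithelium, Lamb3 shows the opposite pattern, and Lamb1 forms 3 steps.

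Upstream sequence is shown for 3 genes that were higher in dermal papilla, Lama2, Lamb1 and Nid1, and for 2 that were lower, Lamb3 and Lama5, so that both sides can be read beside each other. Each line gives the 250 bases before an annotated start, from RefSeq on GRCm38.p6, 5′ to 3′ on the gene's own strand, with the GC box (GGGCGG on either strand) in capitals. The windows are chr10:27616943-27617192 (minus strand) for Lama2, chr12:31265043-31265292 (plus strand) for Lamb1, chr13:13437352-13437601 (plus) for Nid1, chr1:193301744-193301993 (plus, 1 of 2 starts listed) for Lamb3 and chr2:180225860-180226109 (minus) for Lama5. An annotated start can lie inside the gene's full span. The 5′ end of that span, at 27617191 for Lama2, 31265146 for Lamb1 and 180225904 for Lama5, falls inside the window. The Lamb3 window lies wholly within its gene, which starts at 193294353. Only the Nid1 window lies wholly outside its gene.
Lama2: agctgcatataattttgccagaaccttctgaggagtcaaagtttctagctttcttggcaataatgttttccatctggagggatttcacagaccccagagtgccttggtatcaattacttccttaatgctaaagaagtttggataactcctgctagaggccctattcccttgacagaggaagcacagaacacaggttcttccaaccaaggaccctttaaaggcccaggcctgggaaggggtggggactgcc
Lamb1: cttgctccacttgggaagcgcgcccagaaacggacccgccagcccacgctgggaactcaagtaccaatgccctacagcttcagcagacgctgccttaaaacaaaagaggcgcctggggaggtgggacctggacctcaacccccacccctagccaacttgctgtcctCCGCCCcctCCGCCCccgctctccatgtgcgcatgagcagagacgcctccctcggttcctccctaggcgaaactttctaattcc
Nid1: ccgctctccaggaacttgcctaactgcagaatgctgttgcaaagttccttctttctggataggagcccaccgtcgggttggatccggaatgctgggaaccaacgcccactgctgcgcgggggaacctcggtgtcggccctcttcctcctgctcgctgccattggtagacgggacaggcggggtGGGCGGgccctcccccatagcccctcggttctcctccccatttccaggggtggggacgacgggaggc
Lamb3: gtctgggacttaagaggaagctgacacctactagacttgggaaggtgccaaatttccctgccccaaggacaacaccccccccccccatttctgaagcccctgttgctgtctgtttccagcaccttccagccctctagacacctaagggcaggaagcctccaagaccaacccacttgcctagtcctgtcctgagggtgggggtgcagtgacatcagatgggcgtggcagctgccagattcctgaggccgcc
Lama5: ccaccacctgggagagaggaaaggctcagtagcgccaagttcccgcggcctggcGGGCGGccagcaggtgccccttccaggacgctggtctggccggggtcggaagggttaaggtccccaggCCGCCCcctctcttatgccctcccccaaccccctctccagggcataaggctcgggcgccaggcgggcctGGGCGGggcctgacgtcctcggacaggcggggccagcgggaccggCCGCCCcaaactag
The GC box occurred 2 times in the Lamb1 window, 1 time in that of Nid1, 4 times in that of Lama5 and 0 times in those of Lama2 and Lamb3, so genes of both sides held it. It was in 10 of the 24 windows found for 21 of the 34 members, or 41.7%, against 32.7% of all 32851 windows. An AP-1 motif (TGANTCA, either strand) was in 1 of the 24 windows, against 6.75% of all. TCF/LEF (CTTTGAT) and TATA box (TATAAA) motifs, on either strand, were in 0 of the 24, against 3.21% and 12.4% of all. None of these motifs contains another, and the counts describe only the letters in the windows.

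Among the integrins, the laminin receptors of keratinocytes were lower in dermal papilla. Itgb4 encodes the beta4 subunit, whose long cytoplasmic tail ties the hemidesmosome to keratin filaments. It was at 4.65, 5.09 and 5.53 in dermal papilla, against 8.83, 9.47 and 8.29 in hair germ and 8.73, 8.90 and 8.95 in bulge. All dermal papilla arrays were below the array median, and the difference was -3.77 ± 0.26 (SE; limma, adjusted p = 7.87e-07). Itga6, the alpha6 subunit that pairs with beta4 or beta1, was at 9.25, 8.38 and 8.38 in dermal papilla, against 11.69, 10.87 and 11.31 in hair germ and 10.09, 9.87 and 10.60 in bulge. Unlike Itgb4, it stayed above the array median in every dermal papilla array, with a difference of -2.07 ± 0.22 (SE; limma, adjusted p = 1.96e-05). Its mean linear signal in dermal papilla was 16% of that in hair germ and 34.8% of that in bulge, where the summed keratinocyte markers stood at 1.09% and 1.56%. On its brightest probe set Itga6 was highest in dermal papilla on day 43. That array also had the highest keratinocyte marker sum in dermal papilla, 1134 against 248 and 268 on days 56 and 69. On the second Itga6 probe set day 43 was lowest in dermal papilla, at 7.85 against 8.21 and 7.87. The part of keratinocyte RNA in the Itga6 values was not tested. Itga3, the alpha3 subunit of another laminin receptor, was at 5.07, 5.16 and 5.68 in dermal papilla, against 7.98, 8.05 and 7.28 in hair germ and 6.83, 6.69 and 7.30 in bulge. That separation amounted to -2.05 ± 0.27 (SE; limma, adjusted p = 9.61e-05). The other 2 probe sets of Itga3 were below the median of every array, with differences of -0.38 and -0.63.

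Itga9 was the integrin gene with the clearest excess in dermal papilla. It encodes the alpha9 subunit, which pairs with beta1 and binds tenascin-C among other ligands. Its values were 7.39, 6.86 and 7.96 in dermal papilla, against 5.79, 5.86 and 4.24 in hair germ and 4.62, 4.89 and 5.36 in bulge. Hair germ and bulge overlapped below the array median, and the difference was 2.28 ± 0.41 (SE; limma, adjusted p = 0.000962). Its other 2 probe sets differed by 0.15 and 1.83.

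Broadly expressed subunits differed little on their brightest probe sets. Itgav, the alphav subunit shared by receptors for vitronectin and latent TGF-beta, was at 10.58, 10.61 and 10.84 in dermal papilla, against 11.05, 10.89 and 11.36 in hair germ and 11.36, 11.57 and 11.43 in bulge. It was lower in dermal papilla, with a small difference of -0.60 ± 0.17 (SE; limma, adjusted p = 0.0174). That call ended without the day 43, 56 or 69 dermal papilla array (adjusted p = 0.0676, 0.0955 and 0.063), and with the mean over its 3 probe sets, at -0.04 (adjusted p = 0.856). Without the arrays of 3'/5' ratio above 6, where 1 hair germ array remains, the Itgav difference was -0.45. Itgb5, a beta partner of alphav, was at 9.68, 10.02 and 9.46 in dermal papilla, against 8.28, 8.94 and 9.50 in hair germ and 9.04, 9.34 and 9.28 in bulge. The day 69 hair germ array lay within the dermal papilla range, and the difference was 0.66 ± 0.23 (SE; limma, adjusted p = 0.0396). The call ended without any one of the bulge arrays (adjusted p = 0.0648, 0.0806 and 0.083 for days 43, 56 and 69). It also ended without the day 43 or day 56 array of dermal papilla (0.203 and 0.196) or of hair germ (0.0776 and 0.0801). The other 3 probe sets of Itgb5 differed by more, 0.93 to 1.36, each with all dermal papilla arrays above all epithelial arrays. With the mean over all its probe sets Itgb5 kept the call, at 1.08 (limma, adjusted p = 0.00427). Itgb1, the beta subunit shared by most matrix receptors, was at 7.21, 7.06 and 7.54 in dermal papilla, against 8.01, 7.07 and 7.11 in hair germ and 6.40, 6.08 and 7.28 in bulge. Its populations overlapped and it was not called, at 0.28 ± 0.27 (SE; limma, adjusted p = 0.455). Itga2b, the alphaIIb subunit of platelets, overlapped between all populations, at 6.19 to 6.91 in dermal papilla, 6.16 to 6.74 in hair germ and 5.82 to 6.60 in bulge. Of 5 megakaryocyte and platelet markers, 0 were above the array median in all 3 arrays of dermal papilla, 1 in hair germ (Gp1bb) and 0 in bulge. Their summed signals were 85.2 to 100.1 in dermal papilla, 136 to 219 in hair germ and 67.5 to 89.9 in bulge, and their part in the Itga2b values was not tested.

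Itgae and Itgb7 encode the alphaE and beta7 subunits, a receptor for E-cadherin carried by lymphocytes within epithelia. Itgae was at 4.56, 4.49 and 4.94 in dermal papilla, against 5.12, 5.97 and 6.08 in hair germ and 6.10, 6.30 and 6.36 in bulge. All 3 bulge arrays exceeded every other array, and dermal papilla was lower than the epithelial mean, with a difference of -1.32 ± 0.25 (SE; limma, adjusted p = 0.00144). Itgb7 was at 4.36, 5.41 and 4.35 in dermal papilla, against 5.46, 5.06 and 6.24 in hair germ and 5.56, 6.27 and 5.95 in bulge. Here dermal papilla and hair germ overlapped, and the difference was -1.05 ± 0.34 (SE; limma, adjusted p = 0.0292). The Itgb7 call ended without the day 43 or day 56 bulge array (adjusted p = 0.0529 and 0.0774). It ended likewise without the day 43 or day 69 array of dermal papilla (0.0957 and 0.191) or of hair germ (0.0549 and 0.0507). Without the arrays of 3'/5' ratio above 6, where 1 hair germ array remains, the Itgb7 difference shrank to -0.62. The leukocyte markers, which include Ptprc of the CD45 depletion in the dermal papilla sort, had summed signals of 179 to 670 in dermal papilla, 312 to 679 in hair germ and 639 to 877 in bulge. Of the 12, 0, 2 and 3 were above the median in all arrays of dermal papilla, hair germ and bulge, and Ptprc was below it in every dermal papilla array. Their part in the Itgae and Itgb7 values was not tested.

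**Figure D2:**
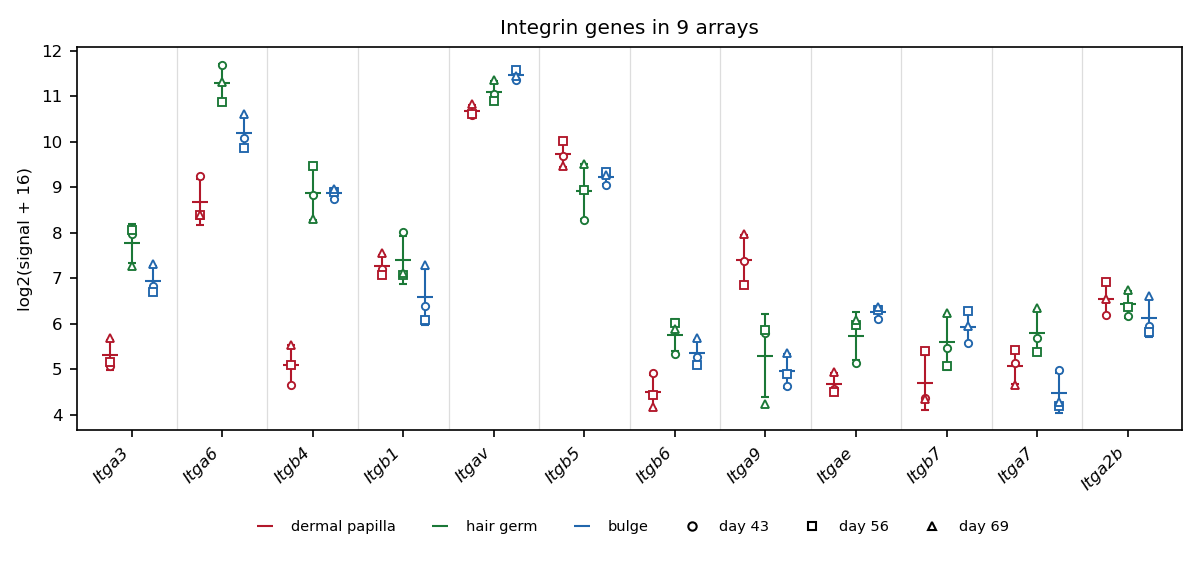
Level of 12 integrin genes, as log2(signal + 16), in dermal papilla (red), hair germ (green) and bulge (blue). Open symbols are single arrays by postnatal day, horizontal ticks are means and bars are the SD over the 3 days. Itgb4 lies between 4.65 and 5.53 in dermal papilla and above 8 in epithelium, Itga6 is high in all arrays and highest in hair germ, and Itgav differs little.

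Counted over the members, 21 of 34 passed the filter (brighter than the median of the array in 3 or more of the 9 arrays), and of these 9 were higher and 9 lower in dermal papilla (limma, adjusted p below 0.05). Over all 7786 genes tested, 16.6% were higher and 23.7% lower. Of the higher members, Itga9, Lama2, Lama4, Lamc3, Nid1 and Nid2 passed the filter only through dermal papilla. Of the lower members, Itga3, Itgae, Itgb4, Itgb7, Lama3, Lama5 and Lamb3 passed it only through epithelial arrays. The counts among members that passed are therefore not evidence of their own, in either direction. With all named genes tested and no filter, 8 of 34 members were higher (23.5%) and 10 lower (29.4%), against 11.2% and 14.9% of 12393 genes. Itgb5 left the first group there, at adjusted p = 0.0536. By the arrays alone, dermal papilla lay above all epithelial arrays in 8 of 34 members and below them in 9, against 10% and 12.9% of all named genes. Members near or at the floor in 1 population have differences that depend on the pseudocount: between pseudocounts of 64 and 1, Lama2 ran from 4.74 to 7.56, Nid1 from 3.59 to 6.77 and Lamb3 from -4.53 to -8.11. Each of these 3 kept its call at both pseudocounts. Without the 3 arrays of ratio above 6, and with no day term, 10 members were higher and 7 lower in dermal papilla.

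The 13 members that did not pass were Itga2, Itga4, Itga5, Itga7, Itga8, Itgal, Itgam, Itgax, Itgb2, Itgb2l, Itgb3, Itgb6 and Lama1, with values from 4.04 to 6.35. Of these, 12 were above the median of 0 arrays. They include the leukocyte subunits Itgal, Itgam, Itgax and Itgb2 and the receptor subunit Itga8, which binds nephronectin in mouse skin. Low signal on a probe set is not absence of the protein. Itgb6, the beta6 subunit of an epithelial activator of latent TGF-beta, was at 4.91, 4.43 and 4.16 in dermal papilla, against 5.34, 6.02 and 5.88 in hair germ and 5.27, 5.09 and 5.67 in bulge. Its dermal papilla arrays lay below all others, and the fit without a filter gave -1.05 ± 0.27 (SE; limma, adjusted p = 0.0162).

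The second comparison set hair germ against bulge, which asks how the 2 epithelial compartments differ. Lamb1 was the member with the largest difference, and Itga6, Lamc3 and Lamb2 were also higher in hair germ. Integrin beta4 and both epithelial alpha chains were at closely similar levels: the differences were 0.00 ± 0.30 (SE) for Itgb4, 0.19 ± 0.24 for Lama3 and 0.30 ± 0.29 for Lama5, none called (limma, adjusted p = 0.995, 0.62 and 0.519). A miss of the threshold does not show that these levels are equal.

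Lamb1 was higher in hair germ than in bulge by 2.39 ± 0.34 (SE; limma, adjusted p = 0.000814), from the values of 8.09, 9.55 and 8.36 in hair germ, against 6.19, 6.10 and 6.52 in bulge given above. Its other probe sets differed in the same direction, by 1.72 and 0.68, and the call held in the 19 alternatives that kept more than 1 hair germ array, with differences from 1.60 to 2.74. The fit without the 3 arrays of high 3'/5' ratio, at 3.28, rests on the day 56 hair germ array alone. Mean Lamb1 signal in hair germ was 16.6% of that in dermal papilla, on the linear scale. The summed dermal papilla markers in hair germ were 2.17% of their dermal papilla level, and the summed dermal fibroblast markers 3.24%. The day 56 hair germ array had the highest Lamb1 value, the lowest 3'/5' ratio (2.97) and also the highest dermal papilla and fibroblast marker sums of the hair germ arrays, 551 and 983. Of the 9 dermal papilla markers, 6 were below the median in all 3 hair germ arrays (Vcan, Lef1, Corin, Alpl, Prom1 and Hhip), and Crabp1 and Sox2 were above it in 1 array each. Wif1 was above it in all 3, at 6.47, 8.64 and 7.02 on days 43, 56 and 69, and was likewise highest on day 56. The part of papilla RNA in the Lamb1 difference was not tested.

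Itga6 was higher in hair germ by 1.11 ± 0.25 (SE; limma, adjusted p = 0.0115), with no overlap of hair germ and bulge arrays, and by 1.40 on its second probe set. The call ended without the day 43 bulge array, at adjusted p = 0.0956, and without the 3 arrays of high 3'/5' ratio, at 0.69 (adjusted p = 0.158), where 1 hair germ array remains. Lamc3 was higher by 1.15 ± 0.32 (SE; limma, adjusted p = 0.0278), although all hair germ and bulge arrays lay below the array median. On its second probe set the difference was 0.66, and hair germ and bulge overlapped. The Lamc3 call ended without the day 56 or 69 bulge array (adjusted p = 0.126 and 0.131) and without the day 43 or 56 hair germ array (0.0758 and 0.0867). It also ended under 5 other settings, where quantile normalization gave 0.49 and a pseudocount of 64 gave 0.43. Lamb2 was higher by 0.74 ± 0.22 (SE; limma, adjusted p = 0.0417). It is the least firm of the calls: without each bulge array the adjusted p was 0.121, 0.132 and 0.155, without each hair germ array 0.052, 0.0714 and 0.144, and without the day 56 dermal papilla array 0.0652.

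Lamb3 stood on the other side of the threshold. All 3 hair germ arrays were below all 3 bulge arrays, and the difference was -0.88 ± 0.28 (SE; limma, adjusted p = 0.0515). It passed under 8 of 20 alternatives, among them quantile normalization (adjusted p = 0.0468), median centring (0.0229) and the fit without a day term (0.0355). It also passed without the day 43 bulge array (0.0466), the day 43 or day 56 dermal papilla array (0.0378 and 0.044) or the day 56 hair germ array (0.0437). Itga3 and Itgb1 differed by 0.82 ± 0.31 and 0.81 ± 0.31 (SE) and were not called (limma, adjusted p = 0.0864 and 0.0963). Both passed without the day 69 hair germ array, at 1.25 and 1.19 (adjusted p = 0.0077 and 0.0191).

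**Figure D3:**
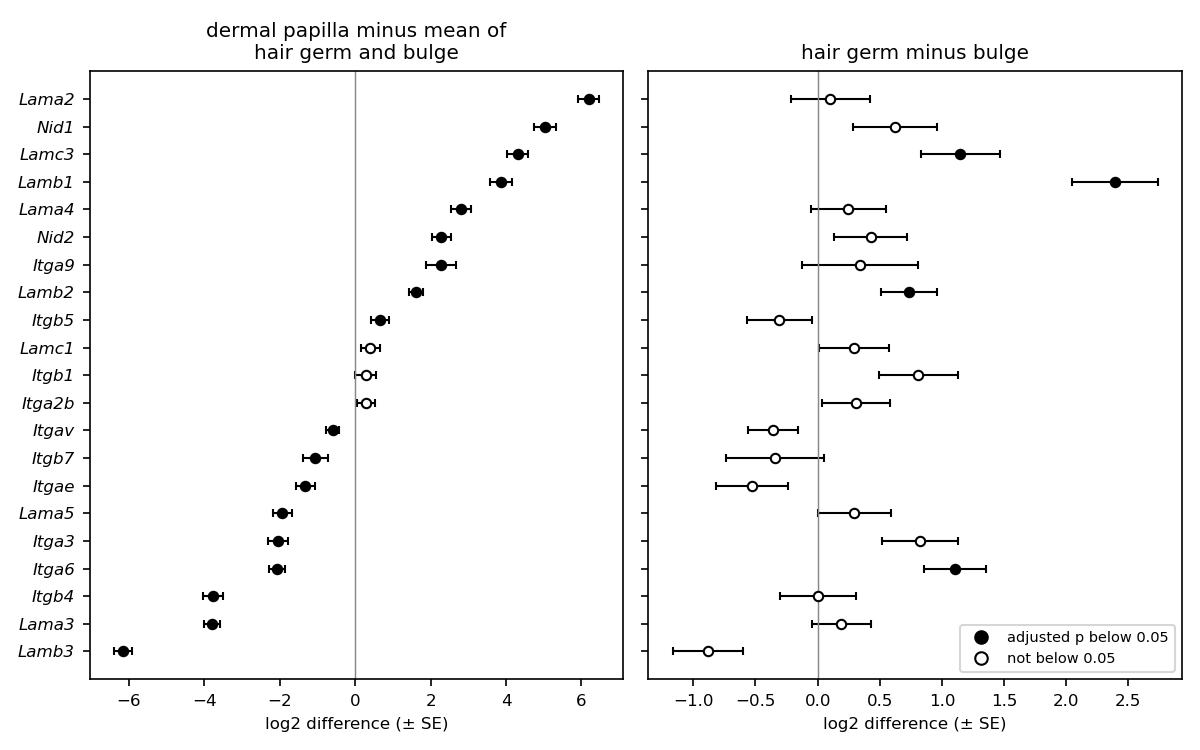
Log2 difference (± SE) of the 21 tested members for dermal papilla minus the epithelial mean (left) and for hair germ minus bulge (right, on a narrower axis), from limma over all genes tested. Filled points have an adjusted p below 0.05. The left panel runs from -6.15 for Lamb3 to 6.19 for Lama2, and the right panel has 4 filled points, with Lamb1 at 2.39.

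In all, 4 of the 21 tested members passed as higher in hair germ and 0 as lower, while 12.2% of all genes were higher and 7.54% lower. Before adjustment 7 of the 21 members (33.3%) had a p below 0.05, the same share as the 2595 of 7786 genes (33.3%). These shares turned with the scaling. The median difference of all genes was 0.11, with 952 genes higher and 587 lower. It was -0.05 after quantile normalization, with 693 higher and 792 lower, and -0.10 after median centring, with 613 higher and 939 lower. Under quantile normalization 2 members were higher (Itga6 and Lamb1) and 2 lower (Itgav and Lamb3), and with median centring 3 were higher (Itga6, Lamb1 and Lamc3) and 1 lower (Lamb3). Without the day 69 hair germ array 6 were higher. Without the day 43 or 56 hair germ array, or without any one bulge array, 2 were higher.

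Hair germ arrays lay entirely above bulge arrays in 8 of 34 members (23.5%) and entirely below in 2 (5.88%), against 20.7% and 10.7% of all named genes, so the members were near the background here. The first group held 3 genes that the filter had removed, Lama1, Itga7 and Itgam, the alphaM subunit of myeloid cells. Itgam was at 4.27 to 4.84 in hair germ, against 4.04 to 4.17 in bulge, all near the floor, and was not called without a filter (limma, adjusted p = 0.123). Lama1, the alpha1 chain of embryonic basement membranes, was at 4.13, 4.13 and 4.73 in dermal papilla and 4.92, 5.99 and 6.06 in hair germ, against 4.06, 4.14 and 4.18 in bulge. It was higher in hair germ than in bulge by 1.53 ± 0.26 in the fit without a filter (SE; limma, adjusted p = 0.00392), at signals below the array median throughout. Itga7, the laminin receptor subunit used to deplete the dermal papilla sort, was at 5.12, 5.43 and 4.64 in dermal papilla and 5.68, 5.37 and 6.35 in hair germ, against 4.98, 4.18 and 4.27 in bulge. It differed by 1.32 ± 0.35 between hair germ and bulge in that fit (SE; limma, adjusted p = 0.0352), and 1 of the 9 arrays exceeded its median. Without a filter, 4 of 34 members (11.8%) were higher in hair germ and 0 lower, against 7.38% and 4.04% of all named genes. Smooth muscle and pericyte markers, of cells that carry this subunit, had summed signals of 482 to 928 in hair germ and 577 to 720 in bulge. Of the 9, 4 were above the median in all 3 hair germ arrays (Acta2, Smtn, Mylk and Cspg4) and 1 in all 3 bulge arrays (Cspg4), while Myh11, Des, Cnn1 and Tagln were below it in every array. Acta2 averaged 7.65 ± 0.17 in hair germ and 5.94 ± 0.46 in bulge (SD, n = 3 each). The means of Cspg4, Myh11 and Cnn1 went the other way, with Cspg4 at 8.18 ± 0.71 in hair germ and 8.82 ± 0.20 in bulge. The part of these marker-bearing cells in the Itga7 difference was not tested.

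An ordered pattern joined the 2 comparisons, which share the hair germ and bulge arrays and are not independent. On the brightest probe sets of Lamb1, Lamb2, Lamc3 and Nid2, every dermal papilla array exceeded every hair germ array. Every hair germ array likewise exceeded every bulge array. This order held in 4 of 34 members (11.8%), against 1.69% of all named genes, and it was noted after the values were seen. It did not hold on the second probe set of Lamc3, where hair germ and bulge overlapped. The mean of Lamb1 was 11.34 ± 0.29 (SD, n = 3) in dermal papilla, 8.67 ± 0.78 in hair germ and 6.27 ± 0.22 in bulge. The means of Nid2, at 6.78 ± 0.48, 4.72 ± 0.28 and 4.29 ± 0.04 in the same populations, put hair germ close to bulge, and Nid2 was not called between them (limma, adjusted p = 0.341).

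The third question was whether the members changed as telogen ran on. No member passed for day 69 or day 56 against day 43 over the 3 populations, and 0% of the 7786 genes did (limma). At an unadjusted p below 0.05 (limma) there were 2 members for day 69, Nid1 and Lamb2, and 2 for day 56, Itga6 and Lamb2. That is 9.52% of the 21 tested members on each day, against 7.26% (565) and 5.11% (398) of all genes tested. Nid1 had the largest difference for day 69, at 1.38 ± 0.34 (SE; limma, adjusted p = 0.65).

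Within a population the days had 1 array each, so differences between them have no test. In dermal papilla, 4 of 34 members (11.8%) differed at least 2-fold between any 2 days with the higher array above its median, against 9.94% of all named genes. In hair germ there were 4, against 16.6%, and in bulge 1 (2.94%), against 3.19%, so none of the populations stood far from the background. The Nid1 value in dermal papilla was 9.18 on day 43, 9.02 on day 56 and 11.03 on day 69, which is 3.59-fold between days 69 and 43. Its second probe set was at 7.06, 7.37 and 9.52, so both probe sets put day 69 apart from the other days. Nid1 in hair germ, at 4.14, 5.29 and 5.63, stayed below the array median. Lamc3 in dermal papilla was at 8.39, 9.42 and 9.68, which is 2.43-fold between days 69 and 43, and its second probe set was at 7.12, 8.47 and 8.91. Lamc1 in dermal papilla was at 5.74, 6.28 and 6.76, close to the median, with 6.65, 5.93 and 6.96 on its second probe set. Itga9, at 7.39, 6.86 and 7.96, differed between days 56 and 69. The dermal papilla marker sum was 14659, 12600 and 17929 on the 3 days, and the adipocyte marker sum was 266, 630 and 1430. The 3'/5' ratio was 6.62, 4.13 and 3.77 on the same days. Their part in the day differences was not tested.

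In hair germ the 4 members were Itgb4 (8.83, 9.47 and 8.29), Itgb5 (8.28, 8.94 and 9.50), Itgb7 (5.46, 5.06 and 6.24) and Lamb1 (8.09, 9.55 and 8.36). Itgb4 and Lamb1 were highest on day 56, the array with the low 3'/5' ratio of 2.97, against 8.34 on day 43 and 7.90 on day 69. The 4 probe sets of Itgb5 all put hair germ lowest on day 43 and highest on day 69. In bulge the 1 member was Itgb1, at 6.40, 6.08 and 7.28, and its other bright probe set was at 5.97, 6.02 and 6.74.

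**Figure D4:**
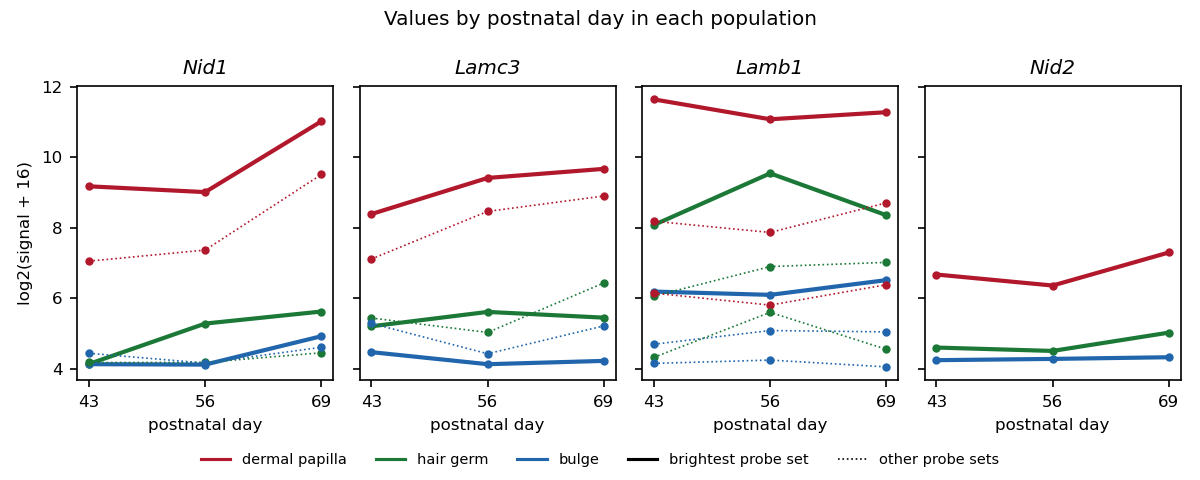
Level, as log2(signal + 16), of Nid1, Lamc3, Lamb1 and Nid2 by postnatal day in dermal papilla (red), hair germ (green) and bulge (blue), with 1 array per point. Solid lines are the brightest probe set and dotted lines the gene's other probe sets. Nid1 in dermal papilla is highest on day 69 on both probe sets, and Lamb1 in hair germ is highest on day 56 on 2 of its 3.

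The partners of these proteins were read from lists of genes that assemble with them. Over all 7786 genes tested, 16.6% were higher and 23.7% lower in dermal papilla. Between hair germ and bulge, 12.2% were higher and 7.54% lower in hair germ. Some list genes passed the filter only through populations where they were high, such as Emilin1, which averaged 4.09 in hair germ and 4.10 in bulge. The counts for these lists are therefore not evidence of their own. Of 20 basement membrane partners on the array, 16 were tested, and 7 were higher and 5 lower in dermal papilla, with a median of 0.22 against -0.10 over all genes. The collagen IV chains divided as the laminins did. Col4a1 and Col4a2, the widespread pair, averaged 11.36 ± 0.42 and 10.11 ± 0.11 (SD, n = 3) in dermal papilla, 7.55 ± 0.71 and 6.63 ± 0.91 in hair germ, and 7.97 ± 0.22 and 7.39 ± 0.20 in bulge. Col4a5 and Col4a6, which form a network of epithelial basement membranes, averaged 4.74 ± 0.22 and 4.38 ± 0.23 in dermal papilla, 9.27 ± 0.79 and 8.01 ± 0.26 in hair germ, and 8.72 ± 0.18 and 7.03 ± 0.14 in bulge. The differences of dermal papilla from epithelium were 3.60 and 3.09 for the first pair and -4.26 and -3.14 for the second (limma, adjusted p at most 3.62e-06). By the naming rule the list is represented by Col4a5, Fbln5, an elastic fibre protein (3.70), Col4a1 and Col15a1, a collagen of the basement membrane zone (3.42). Between hair germ and bulge 3 were higher and 3 lower, with Smoc2, a matrix protein of the SPARC family, at 3.11 and its relative Smoc1 at -2.77 (limma, adjusted p = 8.24e-05 and 0.00302).

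Of the 6 hemidesmosome partners, 5 were lower in dermal papilla, led by Col17a1, the transmembrane collagen of the plaque, at -7.16, and the basal keratins Krt14 and Krt5 at -6.90 and -6.57, with the plaque linker Dst at -6.51 (limma, adjusted p at most 4.5e-08). Krt14 drives the green reporter of the sort, so its difference is part of the gate. The plaque linker Plec averaged 11.07 ± 0.54 (SD, n = 3) in dermal papilla, 11.45 ± 0.37 in hair germ and 11.12 ± 0.44 in bulge, and was not called (limma, adjusted p = 0.531). Between hair germ and bulge, 1 of the 6 was higher, Krt14 at 2.11, and 0 were lower.

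Other integrin ligands were lower in dermal papilla in 9 and higher in 1 of 10 tested, of 15 on the array, with a median of -1.58. Npnt encodes nephronectin, the ligand of the receptor that contains alpha8. It averaged 4.42 ± 0.33 (SD, n = 3) in dermal papilla, 8.74 ± 0.72 in hair germ and 8.76 ± 0.14 in bulge. The ligand genes with the largest differences besides Npnt (-4.34) were Tgfbi (-5.18), Emilin1 (4.27) and Egfl6 (-3.65), which encode adhesive proteins of the matrix. Egfl6 was also lower in hair germ than in bulge, with a difference of -2.46 ± 0.28 (SE; limma, adjusted p = 0.000201), while Thbs1, a matricellular protein, and Icam1, a ligand of leukocyte integrins, were higher by 2.49 and 3.44.

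Integrin activators and adaptors, the cytoplasmic proteins that link beta tails to actin, were higher in dermal papilla in 9 and lower in 4 of 16 tested, of 19 on the array, with a median of 0.78. Fermt2, which encodes the integrin activator kindlin-2, averaged 11.01 ± 0.35 (SD, n = 3) in dermal papilla, 6.72 ± 1.00 in hair germ and 8.66 ± 0.39 in bulge. It was higher in dermal papilla by 3.32 and lower in hair germ than in bulge, with a difference of -1.93 ± 0.35 (SE; limma, adjusted p = 0.00321). The actin-binding adaptor Parva was at 2.29, the adaptor Kank2 at 2.22 and the blood cell kindlin gene Fermt3 at -2.17. Between hair germ and bulge 0 of the 16 were higher and 4 lower: Fermt2, Tns1 (-1.98), Kank2 (-1.25) and Zyx (-1.13). No list was tested as a set.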

How the data were processed

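The deposited values are MAS5 signal intensities, 1 value per probe set and array on a linear scale, made by the authors with GCOS and MAS5, per the submitters' processing notes. The scaling target is not given in the sources used here. Of 22690 probe sets, 64 were controls, 20380 carried a single gene symbol, 691 several and 1555 none. Symbols came from the platform annotation, updated through RefSeq. The members and lists were chosen with earlier results of these data known.

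From the intensities, log2(signal + 16) was computed with no further scaling, each of 12393 genes was given by its brightest probe set, and 7786 genes brighter than the median of the array in 3 or more of the 9 arrays were tested. limma 3.58.1 in R 4.3.3 fitted population plus postnatal day, with a trended eBayes prior and Benjamini-Hochberg adjustment over all genes tested. An adjusted p below 0.05 was called. With 1 array for each population and day, the spread is what remains after the additive population and day terms. The p-values measure that remaining spread between these samples. It may be technical or due to age changes that differ between populations. Every member was described where it passed the filter. Of each related list at most 4 genes with the largest absolute difference among those called were chosen by rule, and the other list genes named were chosen after their values were seen. The fit was tested on simulated data, where 35.5% of genes changed by 1 log2 unit on day 69 were called. The share was 71% for dermal papilla against epithelium and 50.5% for hair germ against bulge. Day changes of that size can therefore be missed. Precision is limited by the number of arrays, and a MAS5 signal gives no count or depth. Same-day arrays deviated together with correlations of -0.10 to 0.18, and different-day arrays with -0.26 to 0.24, so days were a covariate and not a pairing of animals.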

Additional observations from a re-analysis of the deposited data

How the results depend on the processing

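Of the single-gene results, 557 values kept their direction and side of the threshold, 45 lost the call, 10 gained it and 0 reversed. Over the alternatives, 15 of the 18 dermal papilla calls and 1 of the 4 hair germ calls (Lamb1) held wherever the gene was tested. Leaving out 1 array at a time gave 8 to 9 members higher and 7 to 9 lower in dermal papilla, 2 to 6 higher and 0 to 1 lower in hair germ against bulge, and 0 for every day count. A filter in at least 6 arrays left 3 members higher in dermal papilla, since it removes genes seen only there. In hair germ against bulge, 2 members were higher with a pseudocount of 64, after quantile normalization, and without arrays of GAPDH 3'/5' ratio above 6. The lower count there was 1 with a pseudocount of 64, 2 after quantile normalization, 1 after median centring and 1 with no replicate block, that is without the day term. Members differing between days numbered 8 in hair germ with a pseudocount of 1, 2 in dermal papilla and 0 in bulge with a pseudocount of 64, and 2 in dermal papilla for the mean over probe sets. At 3-fold they numbered 1 in dermal papilla, 0 in hair germ and 0 in bulge. The cause of these moves was otherwise not tested. Dim probe sets limit Lamc3, Lama1 and Itga7 in epithelium.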

Other observations

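Among the basement membrane partners, whose median hair germ minus bulge difference was 0.09 against 0.11 over all genes, 2 collagen genes differed in opposite directions. Col7a1, the anchoring fibril collagen below hemidesmosomes, averaged 9.04 ± 0.51 (SD, n = 3) in dermal papilla, 9.95 ± 0.60 in hair germ and 8.45 ± 0.29 in bulge, and was higher in hair germ than in bulge by 1.50 ± 0.33 (SE; limma, adjusted p = 0.0096). Col18a1, a basement membrane collagen, averaged 7.19 ± 0.33 in dermal papilla, 8.81 ± 0.79 in hair germ and 9.99 ± 0.25 in bulge (SD, n = 3 each), with a hair germ minus bulge difference of -1.18 ± 0.32 (SE; limma, adjusted p = 0.0246). These genes were chosen after their values were seen.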
